A study of Homo sapiens with 12 samples.

Results

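The genes described here were high in K/VP.5, an etoposide-resistant leukemia subline, and low in both its parent line and a clone derived from it. RNA was sequenced from 3 human lines, with 4 libraries each. K/VP.5 was cloned from K562 and tolerates etoposide, which holds topoisomerase II in its DNA-cleaving complex. Edit-3, labelled K/VP.5/edit-3, is 1 clone of K/VP.5, so its genome edit and its clonal origin cannot be told apart; CRISPR/Cas9 with a repair oligonucleotide (ssODN) had altered the 5′ splice site at the border of exon 19 and intron 19 of TOP2A, which encodes topoisomerase IIα. K562, the parent of both, is an established cell line derived from a blast-crisis chronic myeloid leukemia. One culture sentence in the labels covers all 3 lines and gives 0.5 µM etoposide every other week, so whether K562 also received the drug is not known. Members were chosen by measured values. A protein-coding gene entered when its mean K/VP.5 level plus 0.1 was at least 2 CPM (read counts scaled to a fixed library total, count × 1e6 / library reads) and at least 4 times the same sum in edit-3 and in K562. Of 19912 protein-coding genes, 52 passed these thresholds, and 7 were then dropped by symbol (LIN28A and genes of the ABC, ADGR, COL, HOX and ZNF families), which left 45 genes out of 58395 in the table. Because both comparisons with K/VP.5 chose the members, their levels in K/VP.5 against edit-3 and K562 are given as a description, without a test.

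Libraries held 25.3 M to 37.1 M counted reads. TOP2A had 377, 358, 371 and 343 CPM in K/VP.5, 408, 451, 386 and 436 CPM in edit-3, and 526, 536, 477 and 496 CPM in K562, so the 3 lines did not overlap. Gene-level counts cannot resolve retention of intron 19. All 12 erythroleukemia markers checked, among them GATA1, KLF1 and the fetal globin genes, had a mean of at least 1 CPM in each line, with summed levels of 3577 to 4357 CPM in K/VP.5, 3553 to 4892 CPM in edit-3 and 4158 to 5514 CPM in K562. Of 26 markers of epithelial, mesenchymal, endothelial, neuronal, lymphoid and monocytic cells, 11 reached 1 CPM in K/VP.5, 10 in edit-3 and 9 in K562. The K/VP.5 count includes the member CDH1, which the rule chose for being high there. CDH1 had 2.47 CPM in K/VP.5, 0.220 in edit-3 and 0.304 in K562, so the order of these counts is not a result. Their summed levels were 1307 to 1961 CPM in K/VP.5, 3244 to 5589 CPM in edit-3 and 922 to 2036 CPM in K562, carried mostly by keratin genes, EPCAM and COL1A2. CDH5 was at 0 reads in K/VP.5, LUM, KDR and STMN2 in edit-3, and LUM and CDH5 in K562. The part of such markers in the results was not tested.

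The 45 genes do not belong to one pathway. They include developmental transcription regulators, receptors and junction proteins, matrix proteins, signalling proteins, transporters and enzymes, many of which are best known from tissues other than blood. Among the regulators, TFAP2B is an AP-2 factor that acts in neural crest, kidney and limb development and binds GC-rich sites as a dimer. PKNOX2 is a homeodomain factor of the TALE class, whose members bind DNA together with other homeodomain proteins. TLE4 is a corepressor of the Groucho family that binds no DNA itself and is recruited by factors such as RUNX, HES and TCF/LEF proteins.

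Promoter sequences were compared because the rule had not used sequence, and because TFAP2B and PKNOX2 encode factors with known binding letters. RefSeq promoters of the GRCh38.p14 assembly run from 250 bases before to 50 bases after a start and were found for 36 of the 45 members. For genes with several starts (13 of the 36), the start farthest upstream was taken; which start these cells use is not known. Shown are TFAP2B, which had the largest ratio of all members, at chr6:50818621-50818920 (plus strand), PLS3 at chrX:115560924-115561223 (plus strand) and TLE4 at chr9:79571715-79572014 (plus strand), the promoters with the AP-2 letters among the 10 members of largest ratio, and PLOD2 at chr3:146161135-146161434 (minus strand), which held the most matches. Capitals mark the AP-2 letters GCCNNNGGC, which read the same on both strands, and the TALE letters TGACAG or their reverse complement CTGTCA.
TFAP2B: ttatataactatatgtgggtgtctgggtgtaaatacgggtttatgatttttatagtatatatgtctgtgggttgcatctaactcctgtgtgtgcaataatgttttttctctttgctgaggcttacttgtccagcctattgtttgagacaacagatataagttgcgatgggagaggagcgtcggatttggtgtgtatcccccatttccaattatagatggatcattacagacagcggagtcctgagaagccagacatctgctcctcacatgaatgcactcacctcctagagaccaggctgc
PLS3: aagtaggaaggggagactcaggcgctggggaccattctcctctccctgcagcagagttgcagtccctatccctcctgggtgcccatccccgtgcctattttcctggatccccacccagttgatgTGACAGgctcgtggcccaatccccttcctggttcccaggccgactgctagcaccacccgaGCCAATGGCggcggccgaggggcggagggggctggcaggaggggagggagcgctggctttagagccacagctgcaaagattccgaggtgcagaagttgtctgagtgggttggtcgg
TLE4: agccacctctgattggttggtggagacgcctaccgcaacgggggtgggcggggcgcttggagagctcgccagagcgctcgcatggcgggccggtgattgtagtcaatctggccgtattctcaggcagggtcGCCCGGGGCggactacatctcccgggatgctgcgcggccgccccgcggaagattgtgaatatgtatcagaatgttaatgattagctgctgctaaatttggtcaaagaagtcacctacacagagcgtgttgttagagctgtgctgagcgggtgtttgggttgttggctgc
PLOD2: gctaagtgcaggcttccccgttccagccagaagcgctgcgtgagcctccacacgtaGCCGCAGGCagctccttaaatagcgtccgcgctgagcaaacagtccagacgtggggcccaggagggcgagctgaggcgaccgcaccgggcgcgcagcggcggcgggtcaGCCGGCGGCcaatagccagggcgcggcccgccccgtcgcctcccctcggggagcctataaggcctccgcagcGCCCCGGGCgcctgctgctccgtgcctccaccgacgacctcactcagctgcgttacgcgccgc
The TFAP2B window held neither set of letters, and PLOD2 held the AP-2 letters 3 times.

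The AP-2 letters occurred in 12 of the 36 member promoters (33.3%), against 32.3% of 10473 promoters of tested protein-coding genes and 22.9% of all 27305 RefSeq promoters. The share was thus about that of other expressed genes. The 12 were FMNL2, IRS1, KIAA1257, KRTCAP3, LRP3, PLCL2, PLOD2, PLS3, PRTG, TLE4, TRERF1 and TRPV3. The TALE letters occurred in 7 of the 36 (19.4%), against 13.2% of promoters of tested protein-coding genes and 15.9% of all promoters. In the 150 bases before the start alone, the AP-2 share was 27.8% against 20.1% of promoters of tested genes, and the TALE share was 5.56% against 6.27%, so the order of the TALE shares turned with the window. In LRP3, PLS3 and TRERF1, which held both sets of letters, the matches lay apart. CpG content depended on the window too. The ratio of observed to expected CpG reached 0.6 in 21 of 36 (58.3%), against 81.0% of the promoters of tested protein-coding genes and 48.8% of all RefSeq promoters, with a median ratio of 0.64 in members, 0.84 in tested genes and 0.58 in all. In the 150 bases before the start it reached 0.6 in 44.4% of members, 80% of tested genes and 48.9% of all promoters, so members stood between the other sets in the whole window and below both in the shorter one. DHRS2 and TRDN had no CpG in the window, while PLCL2 had the highest ratio of the members, 1.30. A match is a description of letters and shows no binding.

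Together the 45 genes held 575, 586, 604 and 599 CPM in the K/VP.5 libraries, against 41.8, 61.5, 45.8 and 44.9 CPM in edit-3 and 46.7, 45.4, 44.7 and 46.1 CPM in K562. Their median level was 7.12 CPM in K/VP.5, 0.397 CPM in edit-3 and 0.350 CPM in K562. For all 45 the lowest K/VP.5 library lay above every edit-3 and K562 library, which the selection favours. All 45 passed the filter on low counts, which they had to because of their K/VP.5 level. The data go against the working description that these genes are on in K/VP.5 alone. Only 26 had a mean under 1 CPM in both other lines, while 19 reached 1 CPM in edit-3 or K562, and IRS1 stood near 8 CPM in both. PKNOX2 had 0 reads in both other lines, NBDY had 0 in edit-3, and TLE4 had 0 in K562. In bulk RNA a low level in all cells and a high level in a few cells cannot be told apart.

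**Figure D1:**
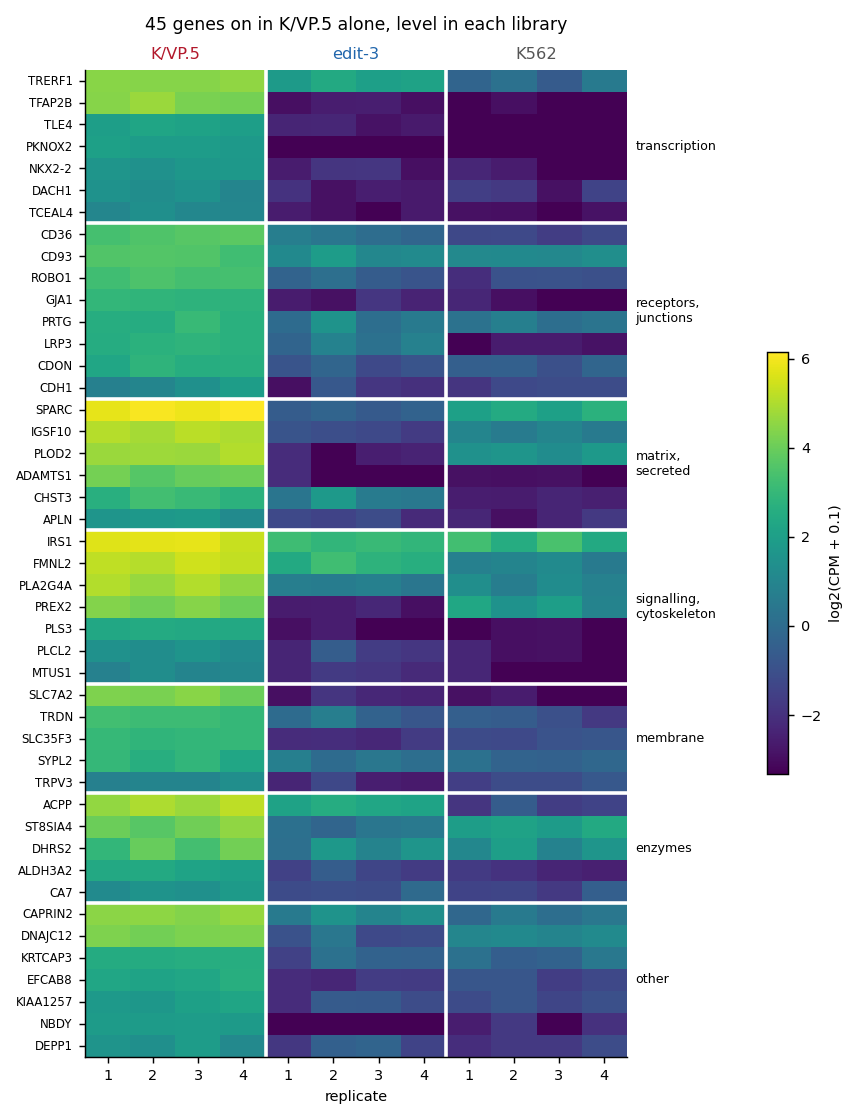
Level of each of the 45 genes (rows, grouped by role) in each of the 12 libraries (columns), as log2 of CPM plus 0.1. The K/VP.5 columns are the brightest in every row; IRS1, FMNL2 and TRERF1 keep intermediate levels in edit-3, SPARC and ST8SIA4 in K562, and PKNOX2 is at 0 reads in both other lines.

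At the thresholds, the members just inside the fold limit were ST8SIA4, CHST3 and PRTG, with ratios of 4.05, 4.08 and 4.11 to the higher of the other lines. Just outside lay SLC16A9, LAMC3 and GPRC5A, with 3.88, 3.84 and 3.83. On the level limit, TRPV3, MTUS1 and TCEAL4 stood inside with 2.04, 2.07 and 2.18 CPM after the added 0.1, and INHBA, CLCN4 and SLC1A3 outside with 1.94, 1.92 and 1.79. Membership at the edge is therefore a matter of a few percent. Of the genes dropped by symbol, LIN28A, an RNA-binding protein that blocks let-7 processing, stood at 167 ± 16 CPM in K/VP.5 against 0.440 ± 0.13 in edit-3 and 0.377 ± 0.17 in K562 (SD, n = 4). The collagen genes COL15A1 and COL23A1 had 66.1 and 47.0 CPM in K/VP.5, the adhesion receptor gene ADGRL3 27.8 CPM and HOXC10 13.4 CPM. These dropped genes are not counted below.

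The transcription regulators numbered 7, with K/VP.5 means of 2.08 to 22.1 CPM. TFAP2B (ENSG00000008196, GRCh38 chromosome 6, 50818723 to 50847613, plus strand) had 21.3, 26.4, 18.6 and 18 CPM in K/VP.5, against 0.0321, 0.0688, 0.0727 and 0.0303 CPM in edit-3 and 0, 0.0323, 0 and 0 CPM in K562. Nearly silent in both other lines, it was 413-fold higher in K/VP.5 than in edit-3 by mean CPM. In K562 a single read in 4 libraries gave a ratio of 2411 with an exact 95% interval of 432 to 95264. This interval covers counting error only, not the spread between libraries. It is no test, since the rule chose members by this comparison. PKNOX2 (ENSG00000165495, chromosome 11, 125164687 to 125433389, plus strand) had 4.07, 3.67, 3.70 and 3.4 CPM in K/VP.5 and no read in any edit-3 or K562 library. With 3 reads per line as the most that 0 allows, it was at least 149-fold higher than in edit-3 and at least 143-fold higher than in K562. TLE4 (ENSG00000106829, chromosome 9, 79571773 to 79726882, plus strand) had 3.87, 4.63, 4.28 and 3.83 CPM in K/VP.5, against 0.0963, 0.103, 0.0363 and 0.0606 CPM in edit-3 and 0 reads in K562. All edit-3 libraries thus held a few TLE4 reads, 9 in total, while K562 held none.

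The other 4 regulators were NKX2-2, TRERF1, DACH1 and TCEAL4. NKX2-2, a homeodomain factor of neural tube and pancreatic islet development, had 3, 2.65, 3.15 and 3.18 CPM in K/VP.5, against 0.112 ± 0.076 CPM in edit-3 and 0.0420 ± 0.051 CPM in K562. TRERF1, a zinc-finger regulator of steroid enzyme genes, had the highest K/VP.5 level of the 7 and kept some expression in the other lines, with 22.1 ± 0.95 CPM in K/VP.5, 4.27 ± 0.78 CPM in edit-3 and 0.934 ± 0.36 CPM in K562. DACH1, a corepressor of the dachshund family, averaged 2.45 ± 0.41 CPM in K/VP.5, 0.0821 ± 0.055 CPM in edit-3 and 0.186 ± 0.11 CPM in K562. TCEAL4 averaged 2.08 ± 0.28 CPM in K/VP.5 and had 5 reads in edit-3 and 3 in K562 over 4 libraries each.

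**Figure D2:**
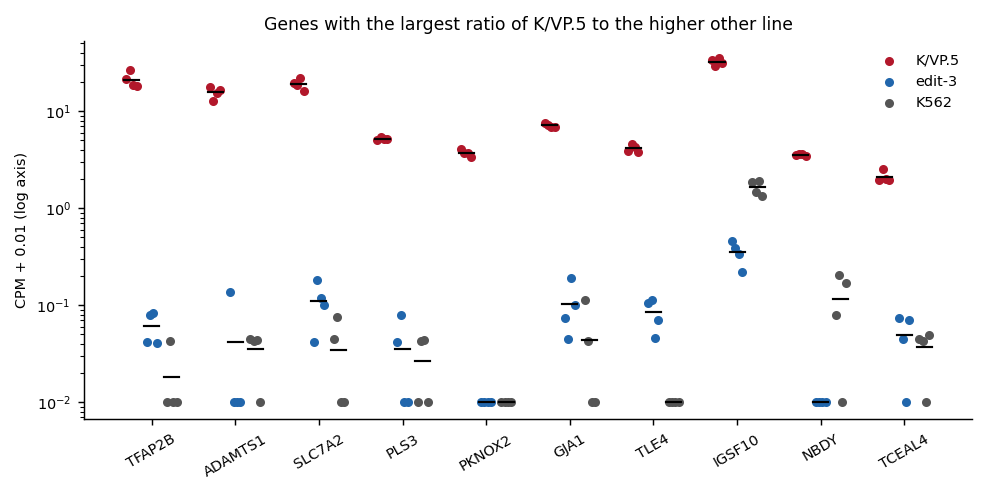
The 10 members with the largest ratio of K/VP.5 to the higher of the other lines: CPM plus 0.01 on a log axis, with a point for each library and a bar at the mean of the 4 libraries of a line. All K/VP.5 points lie above 1 CPM, edit-3 and K562 points at 0.01 are libraries with 0 reads, and IGSF10 is the gene with K562 points near 1.64 CPM.

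Relatives of these regulators were looked up in lists that leave the members out. Over all 18286 genes tested, 18.3% were higher and 18.3% lower in K/VP.5 than in K562, and 10.6% were higher and 12.9% lower in K/VP.5 than in edit-3 (edgeR quasi-likelihood test, Benjamini-Hochberg adjusted p under 0.05). The median log2 fold change over all genes was 0.00 in both. Of 7 tested AP-2 factors and AP-2 cofactors, 1 was higher in K/VP.5 than in K562 (median log2 fold change 0.39), and 1 was higher and 1 lower than in edit-3 (median 0.29). The count against K562 was 2 without K/VP.5 replicate 2 or 4 or K562 replicate 2, 3 or 4, and that of higher genes against edit-3 was 2 without K/VP.5 replicate 4 or edit-3 replicate 1. TFAP2A, the closest relative of TFAP2B on the list, averaged 4.60 ± 0.91 CPM in K/VP.5, 1.61 ± 0.41 CPM in edit-3 and 3.11 ± 0.76 CPM in K562. It was higher in K/VP.5 than in edit-3 (log2 fold change 1.52, SE 0.23, edgeR adjusted p = 1.7e-04). Against K562 it did not pass (0.52, SE 0.22, adjusted p = 0.075), but did with same-numbered libraries as a block (adjusted p = 0.03). KCTD1, which represses AP-2 factors, averaged 1.88 ± 0.11 CPM in K/VP.5 and 3.14 ± 0.16 CPM in edit-3 and had 1 read in K562.

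Of 12 tested TALE homeobox genes, 5 were higher and 2 lower in K/VP.5 than in K562 (median 0.21), and 1 was higher and 4 lower than in edit-3 (median -0.12). The 5 fell to 3 without K/VP.5 replicate 1, 3 or 4 or K562 replicate 2, the 4 to 2 without K/VP.5 replicate 2, and the 1 above edit-3 was 2 without K/VP.5 replicate 2, edit-3 replicate 2 or K562 replicate 4. That count was also 2 with DESeq2, no filter, the replicate block or only the 2 lines, and 0 with a stricter filter. MEIS1, a TALE factor of blood stem cells, averaged 5.33 ± 0.33 CPM in K/VP.5, 3.37 ± 0.87 CPM in edit-3 and 0.363 ± 0.24 CPM in K562. It was higher in K/VP.5 than in K562 (log2 fold change 3.79, SE 0.32, adjusted p = 3.0e-07), while the difference from edit-3 did not pass in the fit as reported (0.66, SE 0.26, adjusted p = 0.077) but passed at 5 other settings. Of 17 tested Groucho corepressors and partner factors, 5 were higher and 6 lower in K/VP.5 than in K562 (median 0.00), and 1 was higher and 6 lower than in edit-3 (median -0.36). The 6 below K562 were 3 without K/VP.5 replicate 1, and the 1 above edit-3 was 0 without K/VP.5 replicate 4 and 2 without edit-3 replicate 2. Among the partners, LEF1 averaged 28.2 ± 2.9 CPM in K/VP.5, 42.6 ± 4.9 CPM in edit-3 and 0.448 ± 0.32 CPM in K562, and RUNX1 13.4 ± 0.79 CPM in K/VP.5, 145 ± 26 CPM in edit-3 and 45.2 ± 7.8 CPM in K562. The abundant family member TLE3 stood at 124 ± 12 CPM in K/VP.5, 123 ± 11 CPM in edit-3 and 142 ± 14 CPM in K562, far above TLE4 in raw counts.

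Because TFAP2B is known from neural crest, a list of neural crest and sympathoadrenal genes was counted too. Of 8 tested, 4 were higher and 2 lower in K/VP.5 than in K562 (median 0.17), and 1 was higher and 2 lower than in edit-3 (median -0.19). The 2 below edit-3 were 1 when any of 7 libraries was left out (K/VP.5 replicates 1, 2 and 4, edit-3 replicates 1, 3 and 4, and K562 replicate 2). HAND2, a factor of heart and sympathetic nerve development, averaged 16.9 ± 0.78 CPM in K/VP.5 and 7.84 ± 1.5 CPM in edit-3 and had 2 reads in K562. It was higher in K/VP.5 than in edit-3 (log2 fold change 1.11, SE 0.16, adjusted p = 9.6e-05). FOXD3 averaged 5.17 ± 0.76 CPM in K/VP.5, 6.79 ± 0.14 CPM in edit-3 and 0.321 ± 0.047 CPM in K562. Most of the list, 14 genes of 22, was too low to test. Of 12 tested markers of other cell types, CDH1 left out, 1 was higher and 3 lower in K/VP.5 than in edit-3 (median -0.51), and 3 were higher and 1 lower than in K562 (median 0.06). COL1A2 stood out, at 231 ± 30 CPM in K/VP.5, 2518 ± 580.4 CPM in edit-3 and 6.68 ± 1.7 CPM in K562. Of the 12 erythroleukemia markers, 2 were higher and 0 lower than in edit-3, and 2 were higher and 2 lower than in K562. Of the other-cell-type markers, the 3 below edit-3 were 5 without K562 replicate 4, the 1 above edit-3 was 2 when any library but K/VP.5 replicates 2 and 3 and edit-3 replicates 3 and 4 was left out, and the 1 below K562 was 3 without K562 replicate 3 and 2 without any other library but K562 replicates 2 and 4, as with same-numbered libraries as a block. None of the erythroleukemia markers was lower than in edit-3 in the fit as reported, but 2 were with the replicate block and 1 with only the 2 lines or without edit-3 replicate 2 or K562 replicate 4. The 2 above edit-3 were 1 without K/VP.5 replicate 1 or 3 or edit-3 replicate 2, 3 or 4.

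The surface receptors and junction proteins numbered 8, from 2.47 CPM (CDH1) to 12 CPM (CD36) in K/VP.5. GJA1, the gap junction protein connexin 43, had 7.59, 7.17, 6.85 and 6.88 CPM in K/VP.5, against 0.0642, 0.0344, 0.182 and 0.0909 CPM in edit-3 and 0.103, 0.0323, 0 and 0 CPM in K562. CD36, a scavenger receptor and fatty acid transporter, had 10.2, 11.4, 12.8 and 13.6 CPM in K/VP.5, against 1.57, 1.2, 0.945 and 0.757 CPM in edit-3 and 0.310, 0.323, 0.232 and 0.316 CPM in K562. The 3 lines lay apart for CD36, whereas edit-3 and K562 overlapped for GJA1. ROBO1, a receptor of Slit guidance proteins, averaged 10.1 ± 0.76 CPM in K/VP.5, 0.685 ± 0.23 CPM in edit-3 and 0.346 ± 0.14 CPM in K562. CDON, a coreceptor of hedgehog signalling, averaged 5.93 ± 0.94 CPM in K/VP.5, 0.497 ± 0.18 CPM in edit-3 and 0.604 ± 0.15 CPM in K562. LRP3, of the LDL receptor family, averaged 6.41 ± 0.57 CPM in K/VP.5, 1.30 ± 0.49 CPM in edit-3 and 0.0426 ± 0.031 CPM in K562. CD93 and PRTG, a lectin-like receptor and an immunoglobulin-domain protein of the early embryo, kept means of 2.51 and 1.52 CPM in edit-3 and 2.19 and 1.2 CPM in K562, beside 11.2 and 6.54 CPM in K/VP.5, ratios of 4.33 and 4.11 to the higher of the other lines after the added 0.1.

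The matrix and secreted group numbered 6. SPARC, a collagen-binding matrix glycoprotein, had 55.5, 65.7, 60.0 and 70.7 CPM in K/VP.5, against 0.578, 0.723, 0.545 and 0.697 CPM in edit-3 and 4.04, 5.43, 4.05 and 6.56 CPM in K562. It had the highest K/VP.5 level of the members in CPM and also per length, at 13.0 CPM per kb of annotated exon. ADAMTS1 (ENSG00000154734, chromosome 21, 26835747 to 26845409, minus strand), a secreted protease that cleaves the proteoglycans versican and aggrecan, had 17.9, 12.6, 15.5 and 16.6 CPM in K/VP.5, against 0.128, 0, 0 and 0 CPM in edit-3 and 0.0345, 0.0323, 0.0332 and 0 CPM in K562. The 4 reads of edit-3 all lay in replicate 1. K562 held 3 reads, which gave a ratio of K/VP.5 to K562 of 609.8 (exact 95% interval 208 to 2959, counting error only and no test). IGSF10, a large immunoglobulin-domain matrix protein, had 34.1, 29.3, 35.4 and 31.3 CPM in K/VP.5, against 0.450, 0.379, 0.327 and 0.212 CPM in edit-3 and 1.86, 1.45, 1.89 and 1.34 CPM in K562. PLOD2, a collagen lysyl hydroxylase, had 26.4, 27.2, 26.6 and 33.3 CPM in K/VP.5, against 0.128, 0, 0.0727 and 0.0909 CPM in edit-3 and 2.69, 2.97, 2.36 and 3.36 CPM in K562. For SPARC, IGSF10 and PLOD2, K562 thus lay between the other lines with no overlap. CHST3, a chondroitin sulfotransferase, showed the opposite order, with 7.75 ± 1.6 CPM in K/VP.5, 1.82 ± 1.0 CPM in edit-3 and 0.0781 ± 0.016 CPM in K562. The last of the group, APLN, the precursor of the peptide apelin, averaged 2.97 ± 0.56 CPM in K/VP.5, 0.270 ± 0.11 CPM in edit-3 and 0.108 ± 0.068 CPM in K562.

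Of 15 tested genes on a list of secreted metalloproteases, their inhibitors and their substrates, 5 were higher and 3 lower in K/VP.5 than in K562 (median -0.33), and 4 were higher and 3 lower than in edit-3 (median -0.18). The 3 below edit-3 were 1 without K/VP.5 replicate 1 or 2, and the 3 below K562 were 5 with same-numbered libraries as a block. VCAN, which encodes the ADAMTS1 substrate versican, averaged 11.4 ± 1.7 CPM in K/VP.5, 0.861 ± 0.47 CPM in edit-3 and 8.07 ± 1.3 CPM in K562. It was higher in K/VP.5 than in edit-3 (log2 fold change 3.72, SE 0.28, adjusted p = 2.1e-07). Against K562 it did not pass (0.45, SE 0.23, adjusted p = 0.15). ADAMTS20 averaged 1.37 ± 0.17 CPM in K/VP.5, 0.492 ± 0.23 CPM in edit-3 and 0.0801 ± 0.060 CPM in K562 and passed against both (adjusted p = 0.0057 against edit-3 and 8.0e-06 against K562). ADAMTS9 went the other way, at 0.899 ± 0.11 CPM in K/VP.5, 3.46 ± 0.54 CPM in edit-3 and 2.98 ± 0.55 CPM in K562 (adjusted p = 2.4e-06 against edit-3 and 3.2e-06 against K562).

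The signalling and cytoskeletal proteins numbered 7. IRS1, the docking protein of insulin and IGF receptors, had 50.7, 54.6, 56.1 and 40.4 CPM in K/VP.5, against 9.12, 7.47, 8.50 and 7.33 CPM in edit-3 and 9.49, 5.65, 10.7 and 5.29 CPM in K562. FMNL2, a formin that elongates actin filaments, had 37.8, 33.8, 43.9 and 39.1 CPM in K/VP.5, against 5.23, 9.43, 6.87 and 6 CPM in edit-3 and 1.66, 1.84, 2.22 and 1.34 CPM in K562. These were the members with the highest levels in edit-3. In K562, IRS1 was again the highest, but FMNL2, at 1.77 CPM, lay below several members, among them SPARC at 5.02 CPM. Edit-3 and K562 overlapped for IRS1 but not for FMNL2. PLS3, an actin-bundling protein, had 5.08, 5.37, 5.16 and 5.21 CPM in K/VP.5, against 3 reads in all in edit-3 and 2 in K562. PREX2, an activator of the GTPase Rac, had 20.6, 17.6, 21.5 and 16.4 CPM in K/VP.5, against 0.0642, 0.0688, 0.109 and 0.0303 CPM in edit-3 and 4.83, 2.75, 3.82 and 1.78 CPM in K562. PLA2G4A, the phospholipase that releases arachidonic acid, averaged 28.8 ± 4.9 CPM in K/VP.5, 1.48 ± 0.19 CPM in edit-3 and 2.01 ± 0.47 CPM in K562. PREX2 was thus nearly absent from edit-3 but not from K562. The phospholipase C-like protein gene PLCL2 and the microtubule-associated protein gene MTUS1 were low throughout, at 2.55 and 1.97 CPM in K/VP.5.

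The transporters and membrane proteins of excitable cells numbered 5. SLC7A2 (ENSG00000003989, chromosome 8, 17497088 to 17570573, plus strand), a carrier of arginine, lysine and ornithine, had 19.6, 18.8, 22 and 16.1 CPM in K/VP.5, against 0.0321, 0.172, 0.109 and 0.0909 CPM in edit-3 and 0.0345, 0.0646, 0 and 0 CPM in K562. By mean CPM it was 189-fold higher in K/VP.5 than in edit-3. The 3 reads of K562 gave a ratio of 727 (exact 95% interval 248 to 3528, counting error only and no test). Its relative SLC7A1, the main carrier of the same amino acids in most cells, averaged 309.9 ± 37 CPM in K/VP.5, 356 ± 116 CPM in edit-3 and 198 ± 16 CPM in K562. SLC7A1 was higher in K/VP.5 than in K562 (log2 fold change 0.61, SE 0.16, adjusted p = 0.011). Against edit-3 it did not pass (-0.19, SE 0.16, adjusted p = 0.44). Of 9 tested genes of cationic amino acid transport and arginine use, 2 were higher and 2 lower in K/VP.5 than in K562 (median 0.26), and 1 was higher and 0 lower than in edit-3 (median 0.03). The 2 above K562 were 1 without K/VP.5 replicate 4 or K562 replicate 3, and 1 was lower than in edit-3 without K/VP.5 replicate 4, edit-3 replicate 1 or K562 replicate 4, or with DESeq2, and 2 with the replicate block. SLC35F3, TRDN, SYPL2 and TRPV3 averaged 7.61, 8.77, 6.51 and 1.94 CPM in K/VP.5, 0.147, 0.906, 1.18 and 0.135 CPM in edit-3, and 0.393, 0.450, 0.809 and 0.369 CPM in K562. TRDN encodes triadin, a protein of the calcium release complex of muscle, and TRPV3 a heat-activated cation channel of skin.

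The 5 enzymes were ACPP, ST8SIA4, DHRS2, ALDH3A2 and CA7. ACPP, prostatic acid phosphatase, had 24.4, 31.4, 26.1 and 36.9 CPM in K/VP.5, against 4.30, 5.75, 4.76 and 4.39 CPM in edit-3 and 0.172, 0.581, 0.232 and 0.277 CPM in K562. ST8SIA4, a polysialyltransferase, had 16.1, 12.9, 17.0 and 23.8 CPM in K/VP.5, against 1.03, 0.757, 1.2 and 1.33 CPM in edit-3 and 3.79, 4.26, 3.55 and 5.33 CPM in K562. Edit-3 lay above K562 for ACPP and below it for ST8SIA4. ALDH3A2, the fatty aldehyde dehydrogenase, averaged 4.70 ± 0.64 CPM in K/VP.5, 0.336 ± 0.17 CPM in edit-3 and 0.137 ± 0.058 CPM in K562. The remaining 7 members, CAPRIN2, DNAJC12, KRTCAP3, EFCAB8, KIAA1257, NBDY and DEPP1, ranged from 2.78 to 22.8 CPM in K/VP.5. DNAJC12, a cochaperone of the aromatic amino acid hydroxylases, had 19.7, 17.4, 19.2 and 19.9 CPM in K/VP.5, against 0.417, 1.24, 0.327 and 0.363 CPM in edit-3 and 1.93, 2.16, 1.83 and 2.21 CPM in K562. NBDY, which encodes a small protein of the mRNA decapping complex, had 3.55, 3.57, 3.63 and 3.45 CPM in K/VP.5, 0 reads in edit-3 and 0.0690, 0.194, 0 and 0.158 CPM in K562.

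By annotated span, reads of 27 members could include reads of a gene annotated on the opposite strand, since the sources used here do not give the strand setting of the counting. In 5 of them the partner was abundant. CA7 overlaps NAE1 (117 CPM in K/VP.5), KIAA1257 overlaps ACAD9 (39.4 CPM), KRTCAP3 overlaps IFT172 (27.1 CPM), NBDY overlaps SPIN3 (16.1 CPM) and DACH1 overlaps the pseudogenes H3F3BP1, RPL21P109 and RPL35AP31 (at most 2.99 CPM), each above the member itself, so the values of these 5 are uncertain. For the other 22, the overlapping genes reached at most 0.521 CPM. The part of such reads was not tested.

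Within K/VP.5 the 4 libraries agreed closely for most members. The coefficient of variation had a median of 12.6% and ran from 2.01% (NBDY) to 38.8% (CDH1). CDH1, the epithelial adhesion protein E-cadherin, had 1.65, 1.87, 2.60 and 3.78 CPM in K/VP.5, against 0.0321, 0.516, 0.182 and 0.151 CPM in edit-3 and 0.172, 0.323, 0.365 and 0.356 CPM in K562. DHRS2, a short-chain dehydrogenase, had 7.65, 15.4, 9.74 and 17.3 CPM in K/VP.5, against 0.995, 3.17, 1.78 and 2.94 CPM in edit-3 and 2, 3.81, 1.73 and 2.96 CPM in K562. In each line replicates 2 and 4 held the higher DHRS2 values. ST8SIA4 had the third largest coefficient, 26.1%, and was highest in replicate 4 of every line. Among the K/VP.5 libraries, replicate 4, the deepest, was the highest for 16 members and the lowest for 17. Among the edit-3 libraries, replicate 2 was the highest for 24 of the 43 members with reads, and its summed level of 61.5 CPM stood above the other edit-3 libraries (41.8 to 45.8 CPM).

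Edit-3 was compared with K562 because the rule leaves the order of these lines free. Of the 45 members, 14 were higher and 10 lower in edit-3 than in K562, and 21 did not pass. Those shares, 31.1% and 22.2%, stood beside 20.6% and 18.6% over all 18286 genes tested. Of all genes, 39.2% passed. The members' shares are not comparable with those of all genes, because only 25 of the 45 pass the filter on the reads of edit-3 and K562 alone and the others were tested through their K/VP.5 level. The median log2 fold change of the members was 0.40 (0.45 with TLE4 and NBDY at their bounds and PKNOX2, at 0 in both lines, left out), against 0.00 over all genes. That median rests on the same members, many with few reads in both lines, so it is not comparable with that of all genes either. Of the 24 calls, 18 had no overlap between the libraries of the lines, and all 21 members that did not pass overlapped. For those 24, the low levels in edit-3 and K562 differed in the fit as reported. ALDH3A2, APLN, EFCAB8, MTUS1, NBDY, PLCL2, SLC35F3, TLE4 and TRPV3 are among the 24. They were tested only through their K/VP.5 level and have no value in a fit of edit-3 and K562 alone.

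The rises in edit-3 over K562 came from each role. LRP3 had 0.739, 1.72, 1.05 and 1.70 CPM in edit-3, against 0, 0.0646, 0.0664 and 0.0395 CPM in K562 (log2 fold change 4.74, SE 0.44, edgeR adjusted p = 6.8e-07). CHST3 had 1.19, 3.34, 1.45 and 1.30 CPM in edit-3, against 0.0690, 0.0646, 0.0996 and 0.0790 CPM in K562 (4.42, SE 0.45, adjusted p = 1.6e-06). All edit-3 libraries lay above all K562 libraries for both. ACPP rose by 3.85 (SE 0.26, log2, adjusted p = 2.6e-08) and TRERF1 by 2.15 (SE 0.21, adjusted p = 1.1e-06). FMNL2 rose by 1.90 (SE 0.19, adjusted p = 1.1e-06) and CD36 by 1.87 (SE 0.26, adjusted p = 3.6e-05). PLCL2 had 0.0963, 0.585, 0.218 and 0.182 CPM in edit-3, against 0.103, 0.0323, 0.0332 and 0 CPM in K562 (2.47, SE 0.67, adjusted p = 0.0085), and the libraries overlapped. With 32 reads in edit-3 and 5 in K562, PLCL2 was tested only through its K/VP.5 level. TLE4, with 9 reads in edit-3 and 0 in K562, was at least 2.87-fold higher in edit-3 (adjusted p = 0.0026), but was tested only through its K/VP.5 level and has no value in a fit of edit-3 and K562 alone. CAPRIN2, an RNA-binding protein, was 0.90 higher (SE 0.21, adjusted p = 0.0032).

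The other 5 rises were near the threshold. They were MTUS1 (adjusted p = 0.023), ALDH3A2 (0.025), ROBO1 (0.026), APLN (0.044) and TRDN (0.048). Without edit-3 replicate 2 only 9 members were higher in edit-3, since all of these 5 calls were lost, while the 10 lower members still numbered 10. APLN and TRDN were the least stable, lost at 9 of 17 and 10 of 18 settings, which include libraries of each line, and the others at 3 settings each. Besides edit-3 replicate 2, those were without K562 replicate 3 or 4 for ALDH3A2, without K562 replicate 2 or 3 for MTUS1, and without K562 replicate 1 or with only the 2 lines for ROBO1. In a fit of edit-3 and K562 alone, where the filter kept 25 of the 45 members, 7 were higher and 6 lower. Of the members that did not pass, PLA2G4A was nearest (log2 fold change -0.49, SE 0.19, adjusted p = 0.055), followed by SLC7A2, with 12 reads in edit-3 and 3 in K562 (ratio 3.82, exact 95% interval 1.03 to 21.1, adjusted p = 0.058). Both passed at some settings, PLA2G4A at 6 of 18, among them without K562 replicate 2, and SLC7A2 without edit-3 replicate 1 (2.03) or K562 replicate 2 (2.64, log2 fold changes). TFAP2B, with 6 reads in edit-3 and 1 in K562, had a ratio of 5.73 (exact 95% interval 0.696 to 264, adjusted p = 0.12) and passed without K562 replicate 2, which holds that read. ADAMTS1, with 4 reads and 3, had a ratio of 1.27 (0.216 to 8.70, adjusted p = 0.86). SLC7A2, TFAP2B and ADAMTS1 were tested only through their K/VP.5 level and have no value in a fit of edit-3 and K562 alone.

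The falls were led by genes that K562 expresses at a few CPM. In edit-3 relative to K562, PREX2 fell by 5.6 (log2, SE 0.40, adjusted p = 4.2e-08), and PLOD2 fell by 5.22 (SE 0.31, adjusted p = 5.1e-09). SPARC fell by 3.01 (SE 0.19, adjusted p = 8.7e-09) and IGSF10 fell by 2.30 (SE 0.21, adjusted p = 4.2e-07). For each of these 4, every edit-3 library lay below every K562 library. ST8SIA4 fell by 2.0 (SE 0.22, adjusted p = 4.4e-06) and DNAJC12 fell by 1.84 (SE 0.30, adjusted p = 1.7e-04). TRPV3, SLC35F3 and EFCAB8 also fell, with log2 fold changes of -1.48, -1.41 and -1.22, but were tested only through their K/VP.5 level. NBDY, with 0 reads in edit-3 and 12 in K562, was at least 4.19-fold lower in edit-3 (adjusted p = 0.0075); it too was tested only through its K/VP.5 level. Of the 6 matrix and secreted members, 2 rose and 3 fell, and of the 8 receptors and junction proteins, 3 rose and 0 fell. Of the 7 regulators, 2 rose and 0 fell. Over all genes tested, 20.6% were higher and 18.6% lower, but counts this small, of members chosen by their K/VP.5 level, are not comparable with those shares. The rises include APLN, ROBO1 and TLE4, with the limits given above. The 5 regulators that did not pass had few reads in each line, from 0 (PKNOX2) to 21 (DACH1 in K562).

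**Figure D3:**
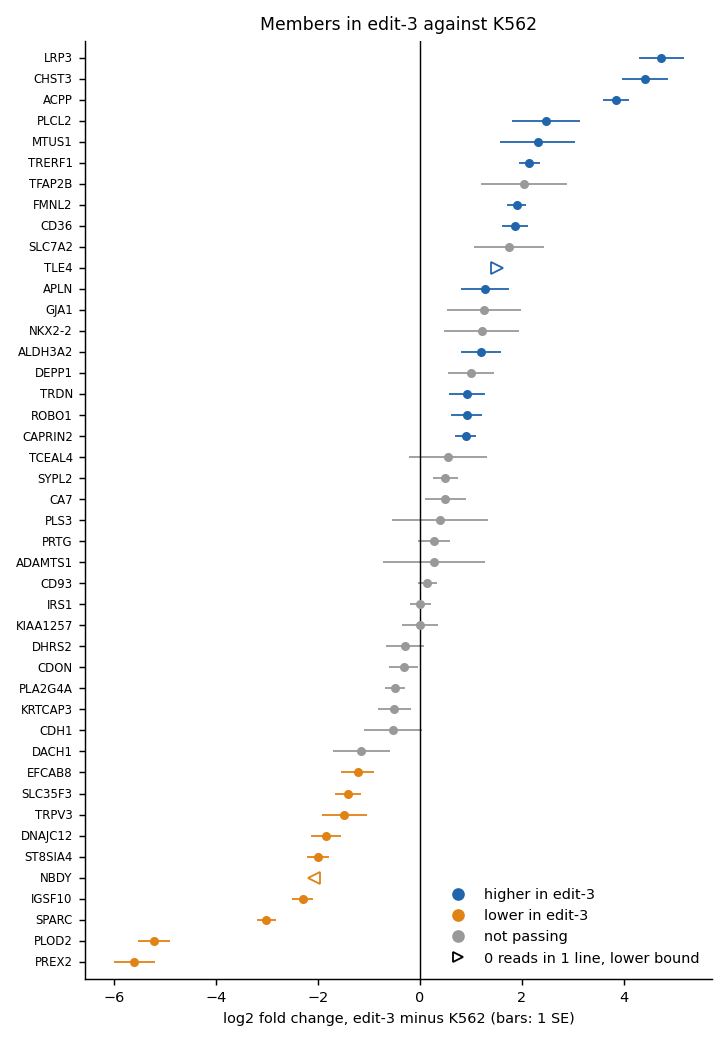
Log2 fold change of edit-3 over K562 for 44 members (PKNOX2, at 0 reads in both lines, is left out), with bars of 1 SE and colour by call. Open triangles mark TLE4 and NBDY, drawn at the bound that 3 reads allow in the line with 0 reads; PREX2, PLOD2 and SPARC lie farthest to the left and LRP3, CHST3 and ACPP farthest to the right.

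The 45 members lay on 20 chromosomes. Chromosome 3 held 6 of them, 13.3% against 5.42% of the tested protein-coding genes, and chromosome X held 4, 8.89% against 3.42%. The 6 on chromosome 3 (PLCL2, ROBO1, KIAA1257, ACPP, PLOD2 and IGSF10) were spread from position 16802651 to 151458709. Within 1 Mb of each other lay PKNOX2 and CDON on chromosome 11, 522 kb apart with 7 tested genes between them, and SLC7A2 and MTUS1 on chromosome 8, 73.2 kb apart with none between.

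Around PKNOX2 and CDON many other genes were moderately higher in K/VP.5. Of 37 tested genes within 1 Mb, 17 were higher and 1 lower in K/VP.5 than in edit-3 (median log2 fold change 0.35), and 15 were higher and 0 lower than in K562 (median 0.42). Over all genes tested, 10.6% were higher and 12.9% lower in K/VP.5 than in edit-3, and 18.3% and 18.3% against K562. Of the 7 genes between the pair, 6 were higher in K/VP.5 than in edit-3 and 4 than in K562. ROBO3, a relative of ROBO1, averaged 1.60 CPM in K/VP.5, 0.242 in edit-3 and 0.508 in K562, with log2 fold changes of 2.72 (adjusted p = 2.5e-05) and 1.63 (adjusted p = 5.2e-04). FEZ1, the nearest gene after PKNOX2, averaged 2.88 CPM in K/VP.5, 1.07 in edit-3 and 1.68 in K562 (1.43, adjusted p = 0.0018, and 0.75, adjusted p = 0.046). TMEM218, the nearest gene before it, was 1.45 higher than in edit-3 (adjusted p = 2.3e-06) but 0.00 different from K562 (adjusted p = 0.99). These neighbours were chosen after their values were seen. Around SLC7A2 and MTUS1, 3 of 10 tested neighbours were higher and 0 lower in K/VP.5 than in edit-3 (median 0.34), and 4 were higher and 0 lower than in K562 (median 0.38). The nearest on each side, MTMR7 and PCM1, differed from edit-3 by 0.03 and -0.02 on the log2 scale, with adjusted p-values of 0.95 and 0.86.

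**Figure D4:**
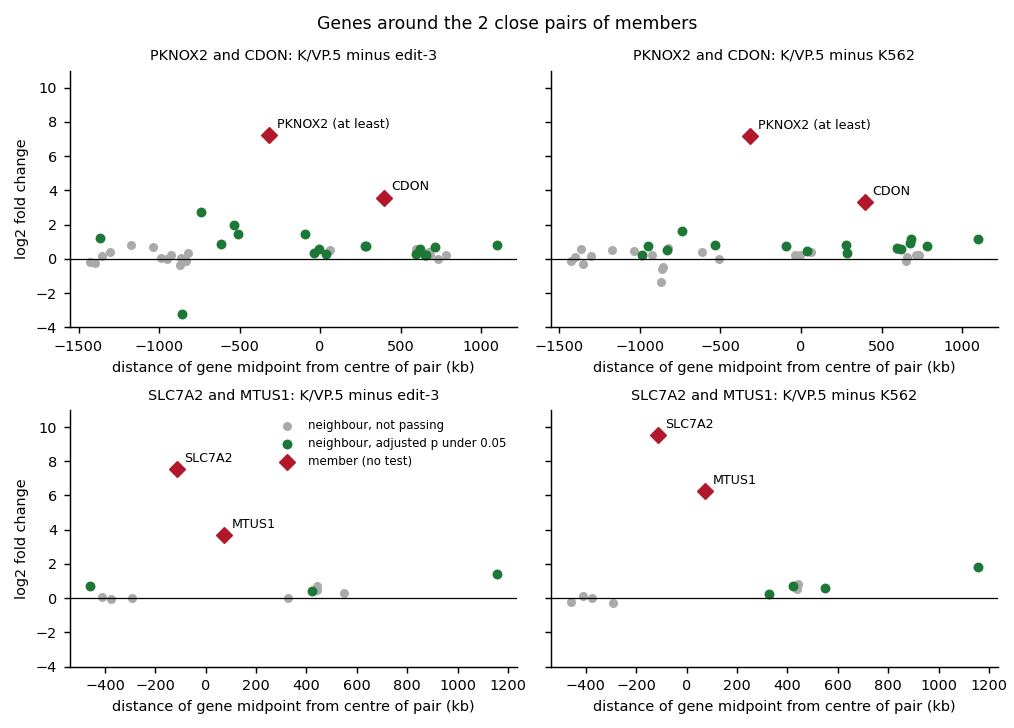
Log2 fold change of K/VP.5 over edit-3 (left) and over K562 (right) for each tested gene within 1 Mb of the 2 close pairs, against the distance of the gene's midpoint from the centre of the pair in kb. Red diamonds are members, drawn at the log2 of the ratios in the text with no test (PKNOX2 at its lower bound), and green points are neighbours with an adjusted p under 0.05; neighbours reach at most 2.72.

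Over all members, the nearest tested genes on each side that were not members numbered 88. Of these, 21 (23.9%) were higher and 9 (10.2%) lower in K/VP.5 than in edit-3, against 10.6% and 12.9% of all genes tested. Against K562, 31 (35.2%) were higher and 12 (13.6%) lower, beside 18.3% and 18.3%. Both shares of higher genes stood above those of all genes; no test of that difference was made, and both comparisons share the K/VP.5 libraries. Among the nearest protein-coding genes that do not overlap a member, a setting added after the data were seen, the shares higher were 21.6% and 30.7%. Among the nearest 3 genes on each side, 261 in all, they were 20.7% against edit-3 and 24.5% against K562. In edit-3 against K562, 25 of the 88 (28.4%) were higher and 18 (20.5%) lower, beside 20.6% and 18.6% of all genes tested.

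A few flanking genes, chosen after their values were seen, shared the pattern of their member. TRPV1, beside TRPV3 and also a heat-activated channel, averaged 0.940 CPM in K/VP.5, 0.376 in edit-3 and 0.359 in K562, and was higher by 1.33 (adjusted p = 0.0025) and 1.36 (adjusted p = 0.0014). SPATA22, on the other side, overlaps TRPV3 on the same strand, so that reads of both cannot be told apart in these counts. The long noncoding gene AL133325.3, next to NKX2-2, averaged 4.11 CPM in K/VP.5, 1.06 in edit-3 and 0.687 in K562, higher by 1.96 (adjusted p = 7.6e-06) and 2.53 (adjusted p = 4.5e-07). PYGO1, a Wnt pathway cofactor next to PRTG, averaged 0.570 CPM in K/VP.5 and 0.124 in edit-3 and had 0 reads in K562. Most flanking genes did not: THBD, next to CD93, averaged 6.11 CPM in K/VP.5 and 7.31 in edit-3 (adjusted p = 0.31), and LRCH2, next to PLS3, was lower in K/VP.5 than in edit-3 by 2.01 on the log2 scale (adjusted p = 8.4e-07).

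**Figure D5:**
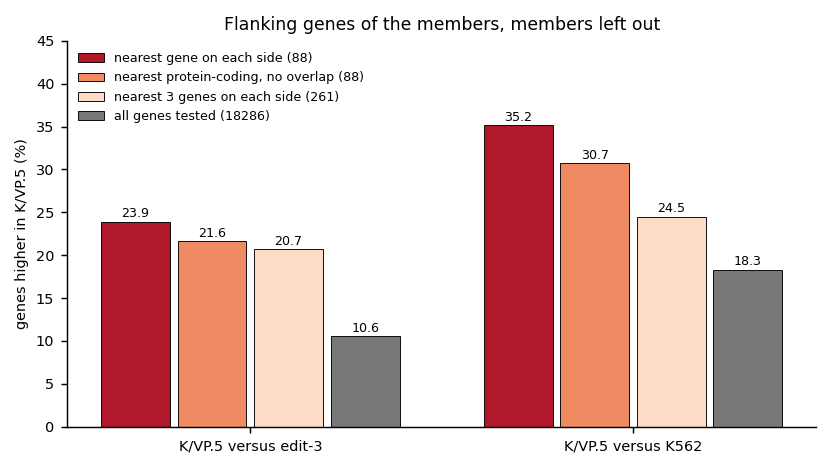
Share of genes higher in K/VP.5 (percent, edgeR adjusted p under 0.05) among genes flanking the members and among all genes tested, for K/VP.5 against edit-3 and against K562. The nearest genes stand at 23.9% and 35.2%, above the 10.6% and 18.3% of all genes; the numbers in the legend are genes counted.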

How the data were processed

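RNA of 3 cell lines was sequenced in 12 libraries, 4 per line, grouped by the source names in the labels. The description label names parental cells for every library, against the source names, and was not used. The deposited table holds whole-number read counts per gene, unnormalized. The tools behind them, per the submitters' processing notes, were featureCounts, Subread 1.5.1 and HISAT2 2.1.0 on GRCh38; strand setting and annotation release are not given. Depth was 25.3 M to 37.1 M reads. CPM was the count × 1e6 / column sum. The members and gene lists were chosen with earlier results of these data known.

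All 18286 genes that passed filterByExpr (99.89% of reads) were fitted together with edgeR 4.0.16 (R 4.3.3, TMM, robust quasi-likelihood, 1 coefficient per line, 12 libraries), and p-values were Benjamini-Hochberg adjusted over all of them, with a threshold of 0.05. The script was tested on simulated counts. Nothing in the labels says that libraries came from separate cultures, so p-values measure the spread between libraries, which may be technical. SE is the absolute log2 fold change divided by the square root of F. Lines with 0 reads were set to a floor of 3 reads over 4 libraries, and exact 95% intervals of ratios with 1 to 3 reads cover counting error only. Intervals of K/VP.5 against another line describe a comparison that the rule used and are no test. Same-numbered K/VP.5 and K562 libraries deviated together (correlations 0.31, 0.15, 0.14 and 0.51). This was taken from the data, since the labels do not say what a number shares. The fit as reported paired no comparison, K/VP.5 against K562 included, and a block by library number was run only as an alternative. No 2 libraries agreed within sampling noise. Positions are from GENCODE 29 by Ensembl ID (58275 of 58395 matched), and exon length is the summed annotated exons. Promoters are RefSeq GRCh38.p14, matched by symbol. The rule for named genes took the 5 given markers, the members with the highest levels, largest ratios, largest rises and falls in edit-3 against K562 and largest coefficients of variation, those at the thresholds or within 1 Mb of another, and up to 4 genes per list with the largest change past the threshold; other members, TLE3 and flanking genes were named after their values were seen. Alternatives were DESeq2 1.42.0, other filters, a replicate block, only 2 lines, leaving out each library and other rule thresholds. Some genes of these lists are not reported here by name.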

Additional observations from a re-analysis of the deposited data

Results flagged for a closer look

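In 8 of 93 groups of 4 libraries checked, 1 library stood apart from the other 3 by Dixon's test, where chance gives about 5% of groups. Edit-3 replicate 2 was the high library 3 times, with 3.65 CPM of CD93 (2 to 2.21 in the other edit-3 libraries), 3.34 CPM of CHST3 (1.19 to 1.45) and 1.24 CPM of DNAJC12 (0.327 to 0.417). It is also the library without which 5 members lost their call in edit-3 against K562. Edit-3 replicate 4 had 0.878 CPM of CA7, against 0.353 to 0.379 in the other edit-3 libraries. K/VP.5 replicate 4 had 9.42 CPM of CD93 (the lowest of the 4) and 33.3 CPM of PLOD2 (26.4 to 27.2). K/VP.5 replicate 2 had 2.51 CPM of TCEAL4 (1.92 to 1.98), and K562 replicate 1 had 0.138 CPM of ROBO1 (0.395 to 0.432). What sets these libraries apart was not tested.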

How the results depend on the processing

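The rule found 45 members, 26 at a limit of 8 times and 132 at 2 times, 34 with 0.5 in place of 0.1, 44 with TMM-scaled totals, 43 to 49 with 1 library left out and, chosen after seeing the data, 43 with the minimum set against the mean without 0.1. In edit-3 against K562, 14 members were higher and 10 lower; only the 2 lines in the fit gave 7 and 6 (25 members tested), and leaving out 1 library gave 9 to 14 higher and 10 to 11 lower. With the replicate block 14 were higher and 11 lower, while calls over all genes were 8121 in place of 7166 in edit-3 against K562, 7681 in place of 6688 in K/VP.5 against K562 and 5494 in place of 4309 in K/VP.5 against edit-3. Same-numbered edit-3 and K562 libraries correlated at 0.47, 0.05, -0.11 and 0.31, and not every library correlated best with its own number. The flanking share above K562 was 24.5% for the nearest 3 genes, and the promoter share with the TALE letters 5.56% in the 150 bases before the start. Of the values for single genes and lists tracked over settings, 1006 were counted as unchanged and 100 counts of lists moved by over 1.5 times. In edit-3 against K562, SLC7A2 at 2 settings and TFAP2B at 1 came to pass. Both were tested only through their K/VP.5 level, and TFAP2B passed without the library that holds its only K562 read. Other named genes crossed the threshold too. PLA2G4A passed at 6 settings in that comparison, and MEIS1 at 5 in K/VP.5 against edit-3. APLN and TRDN lost their calls at 9 and 10. Direction could turn where the fold change was small or reads were few. ADAMTS1 in edit-3 against K562 ranged from -2.89 to 0.67 (log2) over settings. Over all members and the settings with a value, 5 of the 24 calls were lost at 1 setting or more, and 6 members that did not pass did so at 1 or more. Calls with no value in the fit of only the 2 lines could not be lost there, so these counts understate how many calls depend on K/VP.5. Causes were not tested. Under 10 reads in edit-3 and K562 together limit PKNOX2, TLE4, TFAP2B, ADAMTS1, PLS3 and TCEAL4.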
